A study of Homo sapiens with 4 samples.

Results

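The genes described here build, turn over and tension the actin cytoskeleton. They were written as a list of 55 human gene symbols, and a gene was taken up where the array's annotation gave at least 1 probe set that names it alone. This was so for 50 of the 55 genes, with 146 probe sets, out of 19775 genes on the array. ACTG1 is named only by probe sets that also name ACTB, and the expression of FLNA, ACTR2, TPM3 and WDR1 was not analysed here. The data are Affymetrix expression arrays of HCT116, an epithelial line from a human colorectal carcinoma, that received an siRNA against TET1 (2 arrays) or a control siRNA (2 arrays). The TET1 enzyme converts 5-methylcytosine of DNA to hydroxymethylcytosine, and the stated aim was to find genes under its control in this cancer. Both groups were grown in the same serum-containing medium and received siRNA with the same lipid reagent. All results come from 1 cell line and 1 TET1 siRNA group, so what came from less TET1 and what from the siRNA molecule itself cannot be told apart.

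Actin monomers polymerise into filaments that formins and the Arp2/3 complex nucleate, that profilin and cofilin feed and dismantle, and that capping protein closes. Tropomyosins coat filaments and set which proteins may bind them, and non-muscle myosin II pulls on them once its regulatory light chain is phosphorylated, a step that the ROCK kinases promote. The free monomer pool controls the nuclear entry of MRTF coactivators of SRF, a transcription factor whose targets include many genes of the cytoskeleton itself. In an epithelial tumour cell this machinery shapes the cortex, the cell contacts and the adhesions to the matrix.

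Each array gave 1 signal per probe set in arbitrary units on a linear scale, and each gene was read from the probe set that was brightest on average. Array medians were 13.9 and 14.4 with TET1 siRNA and 14.3 and 15.5 with control siRNA. TET1 itself, the targeted gene, had signals of 14.6 and 15 with TET1 siRNA and 58.1 and 59.6 with control siRNA (log2 difference -1.28, SE 0.20, adjusted p = 0.000969). Differences are of log2(signal + 16), TET1 siRNA minus control siRNA, which understates the change of dim genes. They were tested with limma over 12389 genes above a filter on low signal, and a gene passed where its Benjamini-Hochberg adjusted p was under 0.05. The samples are described as biological duplicates, and the number of arrays limits the precision. With 2 arrays a side, the smallest p of an exact permutation test is 0.33, so each p depends on the variance that limma borrows across genes. Epithelial markers had the signals of an epithelial line: EPCAM gave 3133.5 and 3095.2 with TET1 siRNA and 2869.5 and 2742 with control siRNA, and KRT18 gave 7285 and 7561.4 with TET1 siRNA and 6216 and 7119.4 with control siRNA. CDH1 gave 474.8 and 394 with TET1 siRNA and 925.1 and 1059 with control siRNA (log2 difference -1.16, adjusted p = 2.78e-05), and KRT8 gave 2889.5 and 3279 with TET1 siRNA and 2517.5 and 2401.9 with control siRNA (log2 difference 0.32, adjusted p = 0.00887). Of 6 epithelial markers tested 5 had values above 0, and LGALS4 lay below the filter. In these cell lysates, fewer cells with a given transcript and less of that transcript per cell cannot be told apart.

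All 50 measured actin cytoskeleton genes lay above the filter. Of these, 16 were higher after TET1 siRNA (32%), 4 were lower (8%) and 30 did not pass. Over all genes tested 21.9% passed, 11.2% higher and 10.6% lower. The actin genes were bright, with a median control siRNA signal of 1122.9 against 37.9 over all genes on the array. With a filter at the upper quartile of signal, 34.1% of 7816 genes passed, and 20 of 48 actin genes (16 higher, 4 lower). The part of signal level in these shares was not tested. The list was also chosen with earlier results of these data known, so its shares are not independent of them. The median log2 difference was 0.092 in the actin genes and 0.0098 over all genes tested, and 35 of the 50 values were above 0. The rises were in subunits of the Arp2/3 complex (ARPC2, ARPC3, ARPC5), in myosin II chains (MYH9, MYL6, MYL9, MYL12B), and in TPM1, EZR, RDX, RHOC, ROCK2, CDC42, CNN3, ACTN1 and CAPZA2. The falls were RAI14, PXN, MSN and TAGLN2. Most of the changes were small: 2 rises (ARPC3 and MYH9) and 2 falls (RAI14 and PXN) reached 1.5-fold on this scale, or 8% of the members, against 7.8% of all genes. The groups did not overlap in 32 of the 50 (64%), against 59% of all genes. When all probe sets of a gene were averaged, 6 members were higher and 2 lower, or 8 of 50, where 14.4% of all genes passed. Without a trend of variance on signal 5 were higher (ARPC3, ARPC5, TPM1, MYL12B and EZR) and 1 lower (RAI14). In that fit 7.94% of all genes passed. All other members that had passed lost their calls there, also where this is not repeated below. Without limma's moderation no member passed (17 at unadjusted p under 0.05), nor did any other gene.

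**Figure D1:**
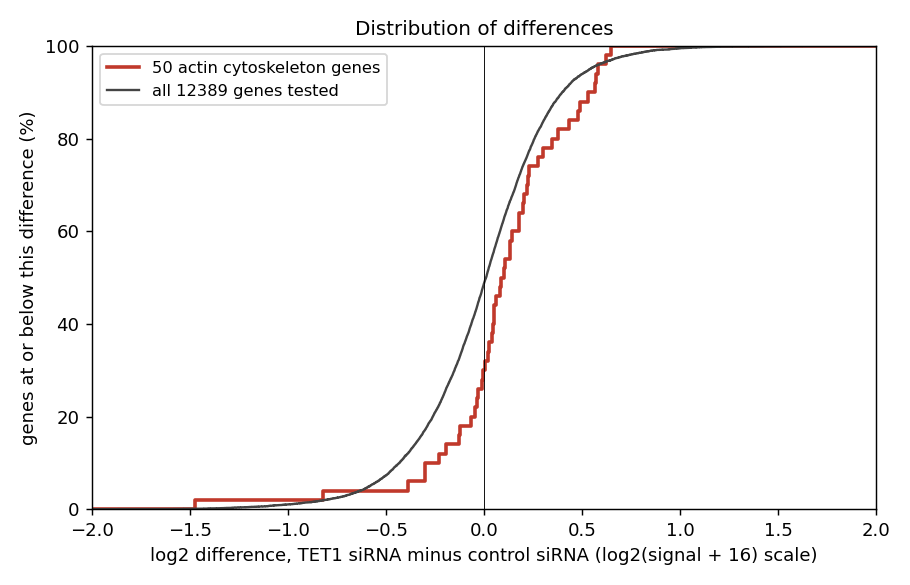
Cumulative share of genes (vertical axis, percent) at or below a given log2 difference, TET1 siRNA minus control siRNA (horizontal axis), for the 50 actin cytoskeleton genes and for all 12389 genes tested. The curves cross the middle of the axis at medians of 0.092 and 0.0098, and the actin genes end at -1.47 (RAI14) on the left and at 0.65 (ARPC3) on the right.

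**Figure D2:**
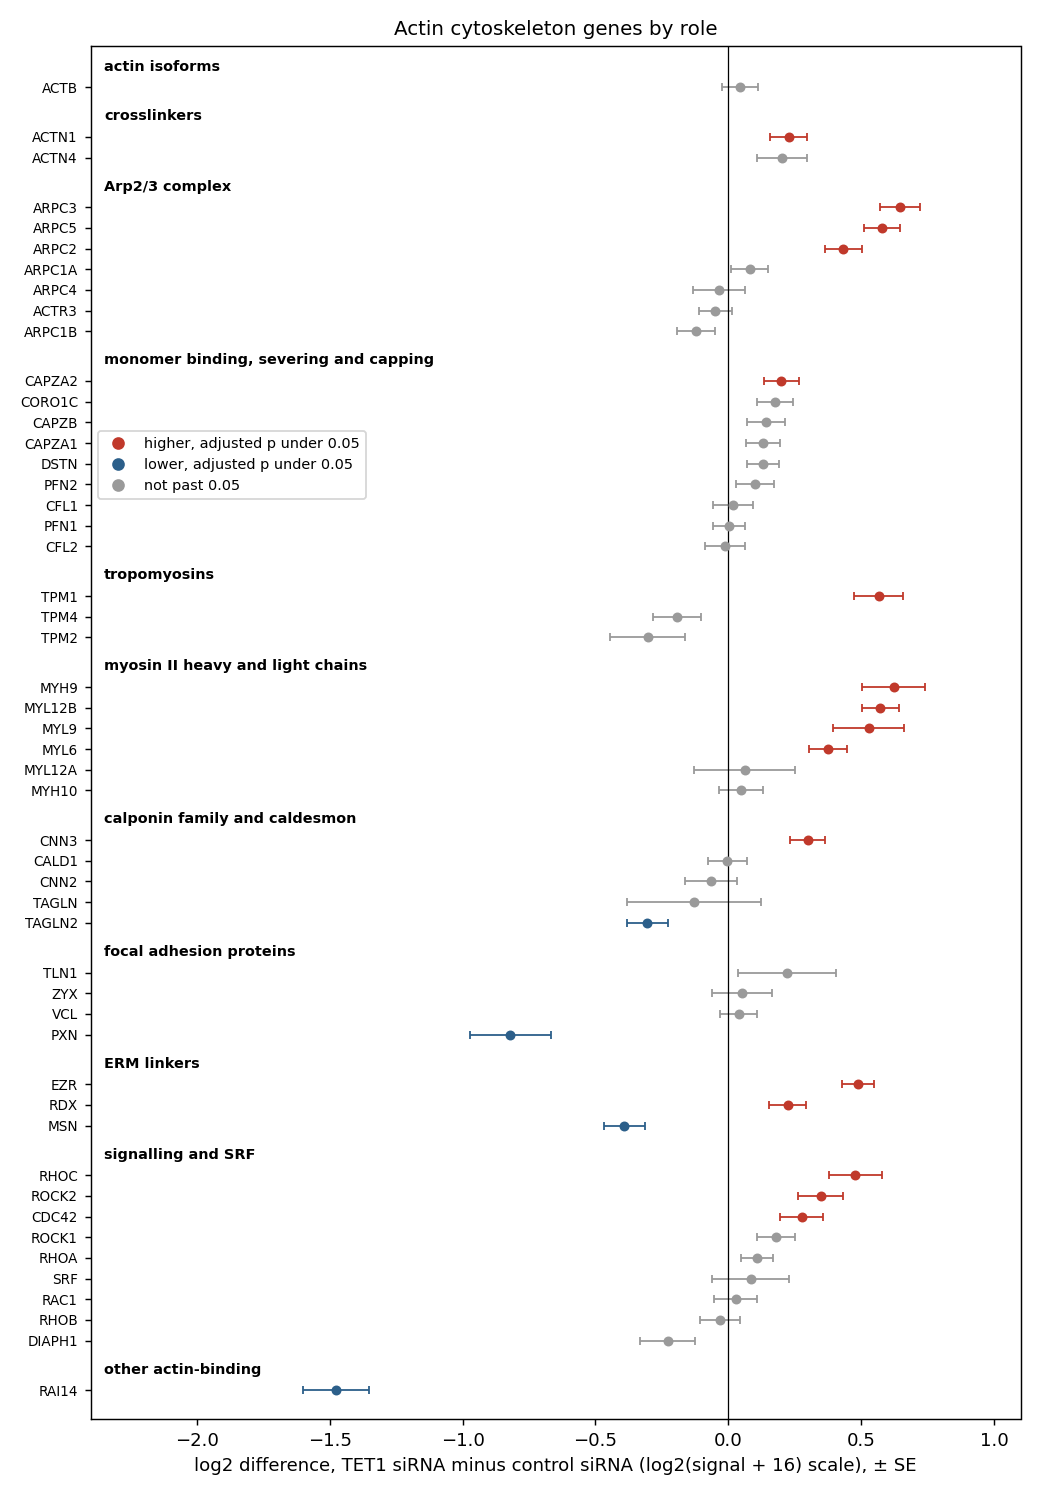
Log2 difference (points, horizontal axis) with limma's standard error (bars) of each of the 50 genes, grouped by role down the page. Colours mark genes higher, lower or not past an adjusted p of 0.05. Of the myosin II chains 4 of 6 were higher, and of the Arp2/3 subunits 3 of 7. The 9 genes that bind monomers, sever or cap filaments lay between -0.013 and 0.20.

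Among the actins and their crosslinkers 1 of 3 measured genes was higher and none lower. ACTB, the beta-actin gene, gave 9011.3 and 8414.4 with TET1 siRNA and 7962.9 and 8934.4 with control siRNA, overlapping signals that did not pass (log2 difference 0.046, adjusted p = 0.697), and its other probe sets had log2 differences of 0.046 and -0.0097. ACTN1, a crosslinker of stress fibres and adhesions, gave 1560.5 and 1463.6 with TET1 siRNA and 1290.2 and 1287.8 with control siRNA (log2 difference 0.23, SE 0.07, adjusted p = 0.0377). Its paralogue ACTN4 gave 632.1 and 576.3 with TET1 siRNA and 489.5 and 557.4 with control siRNA, without overlap, and did not pass (log2 difference 0.20, adjusted p = 0.15). The ACTN1 call was near the threshold: it ended without any 1 of the 4 arrays (0.18 to 0.27, adjusted p from 0.0748 to 0.237), with no filter (0.23, adjusted p = 0.0758) and with the mean of its probe sets (0.11, adjusted p = 0.463).

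Of 7 measured subunits of the Arp2/3 complex, which nucleates branched filaments, 3 were higher, none was lower and 4 did not pass. ARPC3 gave 1085.6 and 1029 with TET1 siRNA and 683.6 and 656.3 with control siRNA (log2 difference 0.65, SE 0.076, adjusted p = 0.000156), a ratio of 1.58. ARPC5 gave 1806 and 1754.5 with TET1 siRNA and 1201.5 and 1171.2 with control siRNA (log2 difference 0.58, SE 0.067, adjusted p = 0.000145). ARPC2, which with ARPC4 forms the core of the complex, gave 3553.6 and 3474.2 with TET1 siRNA and 2460.2 and 2745.4 with control siRNA (log2 difference 0.43, SE 0.069, adjusted p = 0.00111). In each of the 3 both TET1 siRNA arrays lay above both control siRNA arrays, and the 3 probe sets of ARPC2 (0.43, 0.34 and 0.29) and 2 of the 3 of ARPC5 (0.58 and 0.50) passed in tests of single probe sets. The remaining ARPC5 probe set was dim (14.7 and 14.5 with TET1 siRNA, 13.6 and 14.4 with control siRNA). ACTR3, one of the actin-related proteins that seed the branch, gave 4650.9 and 4429.6 with TET1 siRNA and 4806.3 and 4585.7 with control siRNA (log2 difference -0.049, adjusted p = 0.64), and its other probe sets lay between -0.42 and -0.03. The alternative p41 subunits did not pass either: ARPC1A was at 0.08 on the log2 scale (adjusted p = 0.477) and ARPC1B at -0.12 (adjusted p = 0.263). ARPC4 did not pass (log2 difference -0.036, adjusted p = 0.843), although its second probe set fell, with 146.3 and 144.2 with TET1 siRNA and 209.7 and 198.5 with control siRNA (log2 difference -0.45, adjusted p = 0.0213). The 4 probe sets that name ARPC4 together with another gene did not pass (0.077 to 0.49). The difference between subunits was not tested. ARPC2 lost its call without a variance trend (0.43, adjusted p = 0.0728).

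The promoter of ARPC3 is shown as that of the largest rise on the log2(signal + 16) scale; by the ratio of mean signals ARPC3 and MYH9 were both at 1.58. It is RefSeq's sequence from 250 bases before to 50 after the gene's start on GRCh38.p14 (chr12:110450288-110450587, minus strand), read 5′ to 3′ in the direction of transcription, and the capitals mark each CpG, the dinucleotide in which TET1's substrate lies. These arrays did not measure methylation.
ARPC3: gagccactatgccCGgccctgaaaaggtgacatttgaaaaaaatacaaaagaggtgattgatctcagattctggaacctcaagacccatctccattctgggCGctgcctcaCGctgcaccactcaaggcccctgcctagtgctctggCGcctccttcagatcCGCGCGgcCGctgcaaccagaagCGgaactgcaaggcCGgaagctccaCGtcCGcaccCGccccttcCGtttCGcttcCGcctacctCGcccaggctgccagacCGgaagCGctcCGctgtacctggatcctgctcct
This window holds 20 CpG, against a median of 26 over the promoters of 10106 genes tested and of 14 over all promoters in the table.

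Among the 9 measured genes that bind monomers, sever or cap filaments, 1 was higher, none was lower and 8 did not pass. CFL1, the main cofilin, gave 6733.9 and 6826.3 with TET1 siRNA and 6184.7 and 7253.1 with control siRNA (log2 difference 0.018, adjusted p = 0.903), and PFN1, the main profilin, gave 4004 and 4048.2 with TET1 siRNA and 4141.5 and 3903.8 with control siRNA (log2 difference 0.0018, adjusted p = 0.988). Both pairs overlapped. CFL2 (-0.013), PFN2 (0.10) and the severing factor DSTN (0.13) did not pass either. The capping protein subunits had small positive log2 differences: 0.20 for CAPZA2 (adjusted p = 0.0463), 0.13 for CAPZA1 (adjusted p = 0.172) and 0.14 for CAPZB (adjusted p = 0.193). CAPZA2 gave 2400.4 and 2476.1 with TET1 siRNA and 2169.9 and 2071 with control siRNA. The CAPZA2 call ended without any 1 array (0.17 to 0.23, adjusted p from 0.056 to 0.231), with quantile normalization (0.17, adjusted p = 0.0718), with the replicate number as a block (0.20, adjusted p = 0.0543), with no filter (0.20, adjusted p = 0.101), with the mean of its probe sets (0.017, adjusted p = 0.92) and without probe sets that may read several transcripts (suffix _x_at or _s_at; 0.11, adjusted p = 0.473). A second CAPZB probe set passed by itself (987.7 and 948.1 with TET1 siRNA, 744.3 and 759 with control siRNA, log2 difference 0.36, adjusted p = 0.00858), and the last above the filter did not (0.025). For CORO1C, a coronin, the brighter probe set did not pass (log2 difference 0.18, adjusted p = 0.0819) and the other passed by itself (log2 difference 0.28, adjusted p = 0.0298).

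Of 3 measured tropomyosin genes TPM1 was higher and none was lower. TPM1 gave 455 and 494.3 with TET1 siRNA and 307.7 and 322.5 with control siRNA (log2 difference 0.57, SE 0.092, adjusted p = 0.00128). A second TPM1 probe set passed by itself (log2 difference 0.37, adjusted p = 0.0318) and the last above the filter had the same sign (log2 difference 0.31, adjusted p = 0.0991). TPM4 gave 335.9 and 327.1 with TET1 siRNA and 375.1 and 388 with control siRNA, without overlap. It did not pass (log2 difference -0.19, adjusted p = 0.158), and its 2 further probe sets above the filter were at -0.32 and -0.30. TPM2 gave 203.9 and 244.9 with TET1 siRNA and 241.1 and 323.6 with control siRNA (log2 difference -0.30, adjusted p = 0.155), and the 241.1 of control siRNA replicate 1 lay within the TET1 siRNA range. Whether the tropomyosins differ from each other was not tested. With the mean of 6 probe sets, 3 of them below the filter, TPM1 did not pass (0.22, adjusted p = 0.242).

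Non-muscle myosin II is a hexamer of heavy, essential light and regulatory light chains, and 4 of its 6 measured genes were higher, with none lower and a median log2 difference of 0.45. MYH9, the heavy chain of myosin IIA, gave 305.8 and 364.5 with TET1 siRNA and 195.3 and 228.3 with control siRNA (log2 difference 0.62, SE 0.12, adjusted p = 0.00329), a ratio of 1.58. MYH10, the heavy chain of myosin IIB, gave 973.5 and 997.3 with TET1 siRNA and 889.4 and 1019.8 with control siRNA (log2 difference 0.048, adjusted p = 0.743), and these overlapped. MYL12B, a regulatory light chain, gave 5361.6 and 6058.8 with TET1 siRNA and 3897.1 and 3762.8 with control siRNA (log2 difference 0.57, SE 0.069, adjusted p = 0.000185). MYL6, the essential light chain, gave 4835 and 4693.8 with TET1 siRNA and 3922.5 and 3425.1 with control siRNA (log2 difference 0.38, SE 0.072, adjusted p = 0.00322). MYL9, another regulatory light chain, gave 141.1 and 143.9 with TET1 siRNA and 101.1 and 87.1 with control siRNA (log2 difference 0.53, SE 0.13, adjusted p = 0.0161). In MYH9, MYL12B, MYL6 and MYL9 the groups did not overlap. MYL12A, a near-identical paralogue that neighbours MYL12B on chromosome 18, gave 1197.5 and 1124.4 with TET1 siRNA and 1490.9 and 827.3 with control siRNA (log2 difference 0.062, adjusted p = 0.866). The control siRNA arrays enclosed both TET1 siRNA values there, so a change of MYL12A was not detectable by this probe set with this spread. All 4 MYL12A probe sets lay above the filter, and none passed by itself. Signal of these 2 paralogues is uncertain, because their probe sets may read each other's transcripts.

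The dimmer probe sets of MYL9 and MYL6 did not pass. MYL9's second probe set gave 17.4 and 10.3 with TET1 siRNA and 17.9 and 19.5 with control siRNA (log2 difference -0.23, adjusted p = 0.582), and that of MYL6 gave 25.6 and 30.6 with TET1 siRNA and 28.3 and 27 with control siRNA (log2 difference 0.013, adjusted p = 0.978). MYL6 did not pass without _x_at and _s_at probe sets (0.013, adjusted p = 0.976), nor with the mean of its probe sets (0.19, adjusted p = 0.149). With such probe sets left out, MYL9 was at -0.23, adjusted p = 0.587. Its call also ended with that mean (0.15, adjusted p = 0.456), with no filter (0.53, adjusted p = 0.055), without control siRNA replicate 2 (0.44, adjusted p = 0.0839), without TET1 siRNA replicate 1 (0.54, adjusted p = 0.0751) and without TET1 siRNA replicate 2 (0.52, adjusted p = 0.0888). MYH9 was measured by 1 probe set and lost its call without a variance trend (0.62, adjusted p = 0.0609).

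The MYH9 promoter (chr22:36387918-36388217, minus strand, same source and marking) is shown as that of the other rise of 1.5-fold or more.
MYH9: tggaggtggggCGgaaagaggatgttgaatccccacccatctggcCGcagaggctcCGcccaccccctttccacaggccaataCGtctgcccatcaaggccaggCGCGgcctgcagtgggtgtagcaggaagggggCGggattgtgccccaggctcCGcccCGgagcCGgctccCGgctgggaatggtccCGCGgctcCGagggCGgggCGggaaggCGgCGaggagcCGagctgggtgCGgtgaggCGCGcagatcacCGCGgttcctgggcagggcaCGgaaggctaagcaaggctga
It holds 25 CpG.

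**Figure D3:**
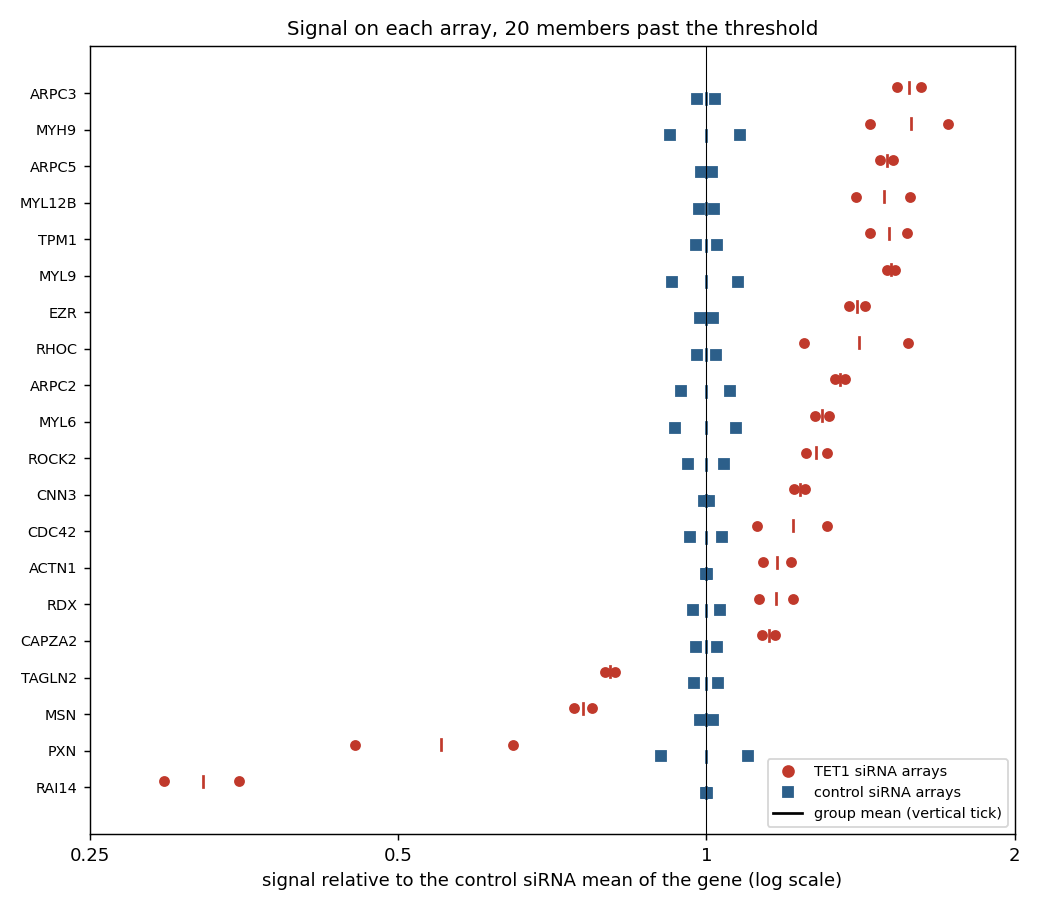
Signal of each array divided by the gene's control siRNA mean (horizontal axis, log scale) for the 20 genes that passed, with TET1 siRNA arrays as circles above control siRNA arrays as squares in each row and group means as vertical ticks. In each of the 20 rows the circles and squares do not overlap; on this scale the TET1 siRNA pair lies farthest apart in PXN, then in RHOC.

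In the calponin family and caldesmon, proteins that decorate filaments and restrain myosin, 1 of 5 genes was higher and 1 lower. CNN3 gave 1698.7 and 1656.9 with TET1 siRNA and 1353.6 and 1367.9 with control siRNA (log2 difference 0.30, SE 0.067, adjusted p = 0.00812). TAGLN2 gave 629.3 and 615.3 with TET1 siRNA and 793.2 and 751.3 with control siRNA (log2 difference -0.30, SE 0.078, adjusted p = 0.017), and its other probe set had the same sign (log2 difference -0.18, adjusted p = 0.201). CNN2 (log2 difference -0.065, adjusted p = 0.701) and CALD1 (log2 difference -0.0042, adjusted p = 0.977) did not pass, and the 7 CALD1 probe sets above the filter lay between -0.11 and 0.092. TAGLN, a smooth muscle marker, was dim, at 18.5 and 16.1 with TET1 siRNA and 15 and 26.7 with control siRNA, and these overlapped. CNN3 did not pass without TET1 siRNA replicate 1 (0.28, adjusted p = 0.0649) or with the mean of its probe sets (0.18, adjusted p = 0.253). TAGLN2 did not pass with median centring (-0.27, adjusted p = 0.0569), with the mean of its probe sets (-0.24, adjusted p = 0.0591), without control siRNA replicate 1 (-0.27, adjusted p = 0.0875), without TET1 siRNA replicate 1 (-0.32, adjusted p = 0.0623) or without TET1 siRNA replicate 2 (-0.29, adjusted p = 0.091).

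Of the 4 proteins of focal adhesions, where filaments are tied to integrins, PXN was lower and the others did not pass. PXN, the scaffold paxillin, gave 209.2 and 146.8 with TET1 siRNA and 354.9 and 292.2 with control siRNA (log2 difference -0.82, SE 0.15, adjusted p = 0.00275), or 1.82-fold lower by mean signal. Its second probe set gave 103.6 and 94 with TET1 siRNA and 149.6 and 135.9 with control siRNA and also passed by itself (log2 difference -0.47, adjusted p = 0.0352). The TET1 siRNA arrays lay below both control siRNA arrays in both probe sets. VCL (vinculin) gave 1650.4 and 1516.5 with TET1 siRNA and 1557.9 and 1521.3 with control siRNA (log2 difference 0.039, adjusted p = 0.76). ZYX (zyxin, log2 difference 0.053, adjusted p = 0.802) and TLN1 (talin, log2 difference 0.22, adjusted p = 0.453) overlapped between the groups, and TLN1 was dim. PXN did not pass without a variance trend (-0.82, adjusted p = 0.0696). Its promoter (chr12:120265681-120265980, minus strand, CpG in capitals) is shown for a fall of over 1.5-fold.
PXN: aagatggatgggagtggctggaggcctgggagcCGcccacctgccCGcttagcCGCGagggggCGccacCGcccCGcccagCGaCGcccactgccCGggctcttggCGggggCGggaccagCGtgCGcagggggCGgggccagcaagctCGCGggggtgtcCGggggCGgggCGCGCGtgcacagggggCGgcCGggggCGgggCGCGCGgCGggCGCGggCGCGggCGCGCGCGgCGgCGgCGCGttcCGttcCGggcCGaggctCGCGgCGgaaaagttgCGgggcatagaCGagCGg
With 50 CpG it was, together with that of ACTG1, the richest of the 49 promoters of the list that could be matched.

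The ezrin, radixin and moesin genes encode closely related linkers between cortical filaments and the plasma membrane, and all 3 passed, with 2 higher and 1 lower. EZR gave 4243.2 and 4399.6 with TET1 siRNA and 3031.9 and 3123.1 with control siRNA (log2 difference 0.49, SE 0.061, adjusted p = 0.000228), a ratio of 1.40. Its 5 probe sets were all positive, and 4 passed by themselves (0.49, 0.41, 0.41 and 0.26). The remaining one was the only one without an _s_at suffix and gave 117.4 and 113.4 with TET1 siRNA and 88.4 and 91.9 with control siRNA (log2 difference 0.31, adjusted p = 0.154), so EZR did not pass without _x_at and _s_at probe sets (0.31, adjusted p = 0.142). RDX gave 2469.8 and 2291.3 with TET1 siRNA and 2096.5 and 1974.1 with control siRNA (log2 difference 0.22, SE 0.069, adjusted p = 0.0382), and its 3 probe sets above the filter lay between 0.17 and 0.22, with none past the threshold by itself. MSN gave 583.4 and 606.3 with TET1 siRNA and 796.9 and 773.1 with control siRNA (log2 difference -0.39, SE 0.078, adjusted p = 0.00424), or 1.32-fold lower by mean signal. Its second probe set lay below the filter (2.6 and 7.8 with TET1 siRNA and 2.2 and 2.2 with control siRNA). With that probe set averaged in, MSN did not pass (-0.091, adjusted p = 0.633).

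The RDX call ended with quantile normalization (0.19, adjusted p = 0.0558), with no filter (0.22, adjusted p = 0.0998), with the mean of its probe sets (0.19, adjusted p = 0.208), without control siRNA replicate 2 (0.18, adjusted p = 0.161), without TET1 siRNA replicate 1 (0.17, adjusted p = 0.264) and without TET1 siRNA replicate 2 (0.28, adjusted p = 0.0671). The EZR and MSN promoters (chr6:158818186-158818485, minus strand, and chrX:65588127-65588426, plus strand) are shown as those of the paralogues that passed in opposite directions.
EZR: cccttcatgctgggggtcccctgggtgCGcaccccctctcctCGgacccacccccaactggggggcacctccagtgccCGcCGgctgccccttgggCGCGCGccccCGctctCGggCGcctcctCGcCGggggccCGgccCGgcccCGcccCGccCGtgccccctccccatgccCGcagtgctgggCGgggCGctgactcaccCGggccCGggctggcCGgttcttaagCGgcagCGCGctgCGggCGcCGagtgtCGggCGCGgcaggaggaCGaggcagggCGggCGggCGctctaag
MSN: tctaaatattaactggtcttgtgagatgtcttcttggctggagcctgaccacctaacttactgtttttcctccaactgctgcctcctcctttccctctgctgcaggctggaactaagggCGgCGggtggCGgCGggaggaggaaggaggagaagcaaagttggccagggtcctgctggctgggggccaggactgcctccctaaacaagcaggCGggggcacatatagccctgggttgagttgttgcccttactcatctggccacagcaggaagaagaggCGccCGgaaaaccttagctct
The EZR window holds 36 CpG and the MSN window 7, the lowest number in the list, which CALD1 shares. Other MSN start sites were not analysed here.

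Of the genes that signal to filaments and myosin, RHOC, ROCK2 and CDC42 were higher. RHOC gave 1545 and 1224 with TET1 siRNA and 1004.6 and 961 with control siRNA (log2 difference 0.48, SE 0.099, adjusted p = 0.00539). Its paralogues did not pass: RHOA gave 5174.7 and 5049.6 with TET1 siRNA and 4615.1 and 4867.4 with control siRNA (log2 difference 0.11, adjusted p = 0.232), and RHOB gave 927.2 and 887.5 with TET1 siRNA and 949.2 and 905.7 with control siRNA (log2 difference -0.031, adjusted p = 0.824). RHOA did not overlap between the groups and RHOB did. ROCK2, a kinase that acts on myosin light chain and its phosphatase, gave 664.6 and 634.7 with TET1 siRNA and 486.8 and 527.9 with control siRNA (log2 difference 0.35, SE 0.084, adjusted p = 0.0124). ROCK1 gave 1336.4 and 1441.4 with TET1 siRNA and 1254 and 1194 with control siRNA and did not pass by this probe set (log2 difference 0.18, adjusted p = 0.105), while its second one passed by itself, with 247.2 and 290.3 with TET1 siRNA and 212.2 and 177.8 with control siRNA (log2 difference 0.43, adjusted p = 0.0371). CDC42, which drives filopodia and polarity, gave 2295.3 and 2682.6 with TET1 siRNA and 2121.4 and 1972.3 with control siRNA (log2 difference 0.28, SE 0.081, adjusted p = 0.0313). A second CDC42 probe set gave 949.6 and 988.5 with TET1 siRNA and 1070.4 and 891.6 with control siRNA (log2 difference -0.012, adjusted p = 0.954), and the last above the filter was at 0.15. RAC1, which drives lamellipodia, did not pass (log2 difference 0.027, adjusted p = 0.86). The formin gene DIAPH1 gave 400.5 and 440.6 with TET1 siRNA and 449.6 and 544.8 with control siRNA (log2 difference -0.23, adjusted p = 0.151). SRF itself gave 99.8 and 102.3 with TET1 siRNA and 86.6 and 102.8 with control siRNA (log2 difference 0.084, adjusted p = 0.742), and control siRNA replicate 2 was above both TET1 siRNA arrays.

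Of these calls RHOC ended without TET1 siRNA replicate 1, which had the higher signal (0.31, adjusted p = 0.0529), and with the mean of its probe sets (0.24, adjusted p = 0.135). ROCK2 did not pass without control siRNA replicate 1 (0.29, adjusted p = 0.0726), without TET1 siRNA replicate 1 (0.32, adjusted p = 0.0847) or with the mean of its probe sets (0.27, adjusted p = 0.0691). CDC42 did not pass without TET1 siRNA replicate 2 (0.17, adjusted p = 0.283), without control siRNA replicate 2 (0.22, adjusted p = 0.15), with quantile normalization (0.24, adjusted p = 0.0571), with no filter (0.28, adjusted p = 0.111) or without _x_at and _s_at probe sets (0.15, adjusted p = 0.418). It was at -0.075, adjusted p = 0.701 with the mean of its probe sets.

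Outside these families, RAI14 (ankycorbin), an actin-binding protein with ankyrin repeats and a coiled coil, had the largest change of the list. It gave 94.1 and 79.5 with TET1 siRNA and 269.3 and 268.7 with control siRNA (log2 difference -1.47, SE 0.12, adjusted p = 2e-05), 3.10-fold lower by mean signal. The control siRNA arrays differed by under 1 unit and both TET1 siRNA arrays lay far below them. RAI14 passed in all 13 moderated alternatives that gave a value; without _x_at and _s_at probe sets it gave none, because its only probe set is of that kind. Its promoter (chr5:34656078-34656377, plus strand, CpG in capitals) holds 35 CpG and 2 copies of GGAATG (searched on both strands), the core of the site that TEAD factors, DNA-binding partners of YAP, recognise.
RAI14: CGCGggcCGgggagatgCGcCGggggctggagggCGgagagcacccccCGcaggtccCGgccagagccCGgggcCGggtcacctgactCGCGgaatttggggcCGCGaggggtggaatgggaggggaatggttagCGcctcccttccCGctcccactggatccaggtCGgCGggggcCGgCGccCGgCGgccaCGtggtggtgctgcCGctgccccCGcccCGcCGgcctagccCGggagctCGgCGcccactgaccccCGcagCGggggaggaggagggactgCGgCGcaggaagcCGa

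**Figure D4:**
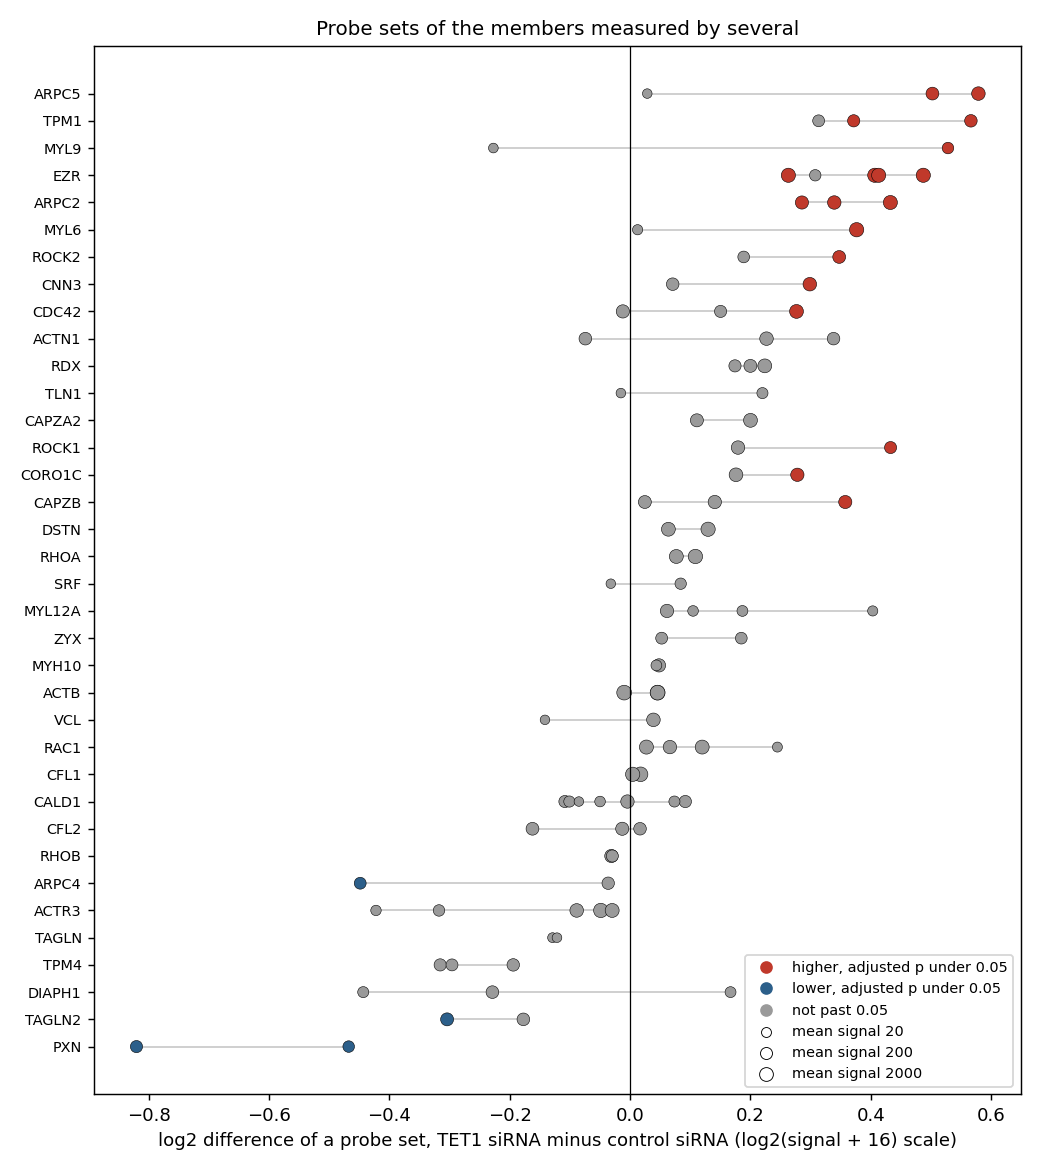
Log2 difference (horizontal axis) of every probe set above the filter for the 36 genes with 2 or more of them, 1 gene per row, with larger points for higher mean signals. Of the 36 genes, 26 have all points on 1 side of 0, and no gene has probe sets that passed in both directions.

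When every probe set was tested by itself, 112 of the 146 lay above the filter, of which 23 were higher (20.5%) and 6 lower (5.36%). Over all such probe sets with 1 gene symbol 8.17% were higher and 8.73% lower. These shares were not matched for signal level. Of the 20 genes that passed, 14 had several probe sets above the filter, all of the same sign in 11. ARPC2, ARPC5, EZR, TPM1 and PXN passed in 2 or more of them. ACTN1, CAPZA2 and RDX passed in no single probe set. The 4 genes that did not pass but have 1 probe set that did are ROCK1, CORO1C and CAPZB (higher) and ARPC4 (lower).

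Motifs were searched in the 49 promoters of the list that matched RefSeq's table by symbol. ACTB, ARPC1B, PFN2, MYL9, TAGLN and RAC1 had no match and were not searched, and of these MYL9 was higher. The CArG box, the site of SRF, was present in 6 of the 49 (12.2%). It was in 1.05% of the promoters of 10106 genes tested and 1.29% of all 27305 promoters in the table. The 6 were SRF with 2 copies, and ROCK2, TPM4, CNN2, FLNA and ACTG1 with 1. FLNA and ACTG1 were not tested for expression. The list was written of cytoskeleton genes, many of which are SRF targets, so this share describes the list and not the arrays. Among the genes with a promoter, 1 of 15 that were higher (ROCK2) held a CArG box, none of the 4 that were lower did, and 3 of 25 that did not pass did. SRF and ROCK2 are shown with the CArG box in capitals, as the gene with 2 copies and the gene that passed; SRF was chosen after its promoter was seen. The boxes start 30 and 10 bases before the SRF start (chr6:43171019-43171318, plus strand) and 73 bases before the ROCK2 start (chr2:11345388-11345687, minus strand).
SRF: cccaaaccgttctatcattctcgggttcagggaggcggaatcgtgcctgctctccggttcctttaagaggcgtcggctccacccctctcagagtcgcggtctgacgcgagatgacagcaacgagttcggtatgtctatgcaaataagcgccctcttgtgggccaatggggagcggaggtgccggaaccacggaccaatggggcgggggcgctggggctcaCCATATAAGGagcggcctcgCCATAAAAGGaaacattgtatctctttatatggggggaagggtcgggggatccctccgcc
ROCK2: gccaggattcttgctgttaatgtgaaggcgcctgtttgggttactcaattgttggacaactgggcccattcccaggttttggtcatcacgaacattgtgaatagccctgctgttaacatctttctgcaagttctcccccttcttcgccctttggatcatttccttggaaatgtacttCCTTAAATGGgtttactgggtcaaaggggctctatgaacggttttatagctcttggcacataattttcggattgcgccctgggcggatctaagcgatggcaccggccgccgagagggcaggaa
GGAATG, on either strand, was in 8 of the 49 (16.3%), against 10.7% of the promoters of genes tested and 14.05% of all promoters in the table. The median number of CpG was 36 (11 to 46) in the 15 promoters of genes that were higher. It was 26.5 (7 to 50) in the 4 of genes that were lower and 31 (7 to 48) in the 25 that did not pass. These ranges overlap, and the difference was not tested. These matches describe letters in a window of 300 bases.

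A further 170 genes of the actin system were written as 8 lists, and 146 of them were tested. Of these, 25 were higher (17.1%) and 23 lower (15.8%), against 11.2% and 10.6% of all genes tested. Their median log2 difference was 0.02. These genes too were bright, with a median control siRNA signal of 214 against 37.9 over all genes on the array. Of them 32.9% passed, against 34.1% of all genes above the upper-quartile filter. The lists were not counted at that filter, and they too were chosen with earlier results of these data known. In control of the myosin light chain and the cytokinetic ring, 1 of 10 was higher and 5 lower, with a median of -0.30. PPP1R12A, the targeting subunit of myosin phosphatase, gave 341.1 and 298.3 with TET1 siRNA and 525.5 and 574.4 with control siRNA (log2 difference -0.76, adjusted p = 0.000302), and PPP1R14B, a phosphatase inhibitor, gave 242 and 241.7 with TET1 siRNA and 440.4 and 417.5 with control siRNA (log2 difference -0.79, adjusted p = 0.000169). The ring scaffold ANLN (log2 difference -0.62, adjusted p = 0.000136) and the light chain kinase MYLK (log2 difference -0.60, adjusted p = 0.0238) also fell. In the list of Arp2/3 isoforms and of the WASP and WAVE complexes, which activate Arp2/3, 3 of 15 were higher and 3 lower (median -0.08). The WAVE complex subunits CYFIP1 (log2 difference -0.68, adjusted p = 5.6e-05) and BRK1 (log2 difference -0.54, adjusted p = 0.000673) fell. Cortactin fell too (CTTN, log2 difference -0.55, adjusted p = 0.0159), while CYFIP2 rose (log2 difference 0.39, adjusted p = 0.0338).

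Of 29 crosslinkers and adhesion adaptors 6 were higher and none lower (median 0.10), led by NF2 (merlin, a relative of the ezrin family; 347 and 341.1 with TET1 siRNA, 165.8 and 183.3 with control siRNA, log2 difference 0.92, adjusted p = 0.000122), the spectrin SPTAN1 (log2 difference 0.86, adjusted p = 0.000393), the kindlin FERMT2 (log2 difference 0.85, adjusted p = 3.67e-05) and TES (log2 difference 0.48, adjusted p = 0.000941).

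Filament turnover genes were higher in 3 and lower in 4 of 30 (median -0.01), with the debranching factor GMFB at 0.45, the cofilin kinase TESK2 at -0.69, the end-capping TMOD2 at -0.49 and the slingshot phosphatase SSH3 at -0.48. Unconventional myosins were higher in 3 and lower in 2 of 12 (median 0.0018), with MYO10 at -0.64, MYO5B at -0.43, MYO5C at 0.40 and MYO1C at 0.35. Of 11 formins and other nucleators only DAAM1 passed (log2 difference 0.39, adjusted p = 0.0457; median 0.15). Of 14 SRF cofactors and other SRF targets 4 were higher and 2 lower (median 0.11). CCN2, a matricellular gene that is also a YAP target, gave 346.3 and 281.7 with TET1 siRNA and 18.9 and 16.2 with control siRNA (log2 difference 3.29, adjusted p = 5.13e-07). Its relative CCN1 gave 486.8 and 378.2 with TET1 siRNA and 86.2 and 67.2 with control siRNA (log2 difference 2.27, adjusted p = 3.27e-06). The survival gene MCL1 was at 0.53 and ELK4, an SRF cofactor, at -0.58.

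Contractile genes also mark muscle, so markers of other cell types were read beside them. Of 7 smooth muscle markers 3 lay above the filter and 2 were higher: ACTA2, the smooth muscle alpha-actin gene, at 234.4 and 222.3 with TET1 siRNA and 129.4 and 148.7 with control siRNA (log2 difference 0.66, adjusted p = 0.00226), and SMTN (log2 difference 0.53, adjusted p = 0.0269). Their summed signal was 381 and 361.7 with TET1 siRNA and 245.7 and 307.3 with control siRNA. MYH11, CNN1, ACTG2 and LMOD1 did not pass the filter, which is on the mean over all arrays (group means of at most 13.8), and DES did not pass (log2 difference -0.24, adjusted p = 0.532). Of 6 measured striated muscle markers only TNNT1 lay above the filter, and it fell (log2 difference -0.41, adjusted p = 0.00672). The summed signal of 6 fibroblast markers was 386 and 491.6 with TET1 siRNA and 353.6 and 312.4 with control siRNA, most of it COL1A1, which rose (log2 difference 0.47, adjusted p = 0.0242). Endothelial markers summed to 34.5 and 22.8 with TET1 siRNA and 29 and 35.1 with control siRNA, and leukocyte markers to 36.3 and 33.1 with TET1 siRNA and 20.7 and 37.8 with control siRNA. The ratio of 3' to 5' signal of the beta-actin control probe sets, a sign of RNA integrity, was 1.28 and 1.26 with TET1 siRNA and 1.21 and 1.19 with control siRNA. For GAPDH it was 0.884 and 0.858 with TET1 siRNA and 0.858 and 0.846 with control siRNA, where the groups met. The part of these markers and ratios in the results was not tested.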

How the data were processed

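RNA of 4 HCT116 cultures, 2 per siRNA, was measured on Affymetrix arrays, 1 each. Per the labels' protocols, cDNA was primed with oligo(dT), so signals come mainly from 3' ends. The authors deposited 1 linear intensity for every probe set of an array. The trimmed mean (2% off either end) was 100.01 on all arrays, so they had been scaled one by one, which hides a change in total mRNA. Software and background step: not given in the sources used here.

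Samples were grouped by the siRNA in their labels. From 54675 probe sets 62 controls were dropped. By the platform annotation 41091 had 1 gene symbol, 1801 several and 11721 none, and 41037 matched the RefSeq table (GRCh38.p14) used for current symbols. The brightest probe set stood for its gene. Log2(signal + 16) was tested where its mean exceeded 4.86, the median over non-control probe sets (signal 13.1), with limma 3.58.1 in R 4.3.3 (lmFit, eBayes with a variance trend, two-sided, Benjamini-Hochberg over 12389 genes, threshold 0.05). The fit had 2 residual degrees of freedom and 9.24 prior degrees. Probe sets were also tested singly, and motifs were counted in RefSeq promoters.

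All written genes may be named; of each further list, up to 4 genes past the threshold, by size of change. The rule for promoters took changes of 1.5-fold or more and paralogue pairs whose calls differ. To keep the number small, of such pairs only EZR with MSN and ROCK2 are shown, and SRF was added outside the rule; these choices were made after values were seen. The result of 1 further list is not reported here; its genes stay in the total over the 8 lists. The members and lists were chosen with earlier results of these data known. On simulated data with this design, 0%, 40%, 88% and 100% of rises of 0.25, 0.5, 1 and 2 (log2, 25 genes each) were recovered. For falls of those sizes it was 8%, 16%, 72% and 100%, with 7 false among 113 calls. The noise was drawn once and alike for both directions, so the gap between falls and rises is not a property of the test. The simulation gave 113 calls and the data 2709, so the shares recovered need not hold for the data. Alternatives changed the normalization, pseudocount, variance model, filter, probe set choice, threshold, replicate block and arrays used.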

Additional observations from a re-analysis of the deposited data

Results flagged for a closer look

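A probe set that names both MYL12B and MYL12A, and so entered none of the comparisons by gene, gave 6873.9 and 6377.6 with TET1 siRNA and 5193.7 and 4627 with control siRNA (log2 difference 0.43, adjusted p = 0.00211, limma over all probe sets above the filter). It is listed because it passed in data that the counts above do not use. Among probe sets that name 1 of these regulatory light chains alone, that of MYL12B had a log2 difference of 0.57. The brightest of the 4 of MYL12A was at 0.062, and none of the 4 passed by itself. The share of each gene in the common probe set was not tested.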

How the results depend on the processing

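ARPC3, ARPC5, MYL12B and RAI14 passed in every alternative with moderated variances that gave a value, and ARPC2, MYH9 and PXN in all of these except the fit with no variance trend. The number of genes higher, lower, actin genes higher, lower, and actin probe sets higher, lower was 442, 542, 5, 1, 0 and 1 with no variance trend, and 0 in all 6 without moderation (2679 genes and 17 actin genes at unadjusted p under 0.05, lowest adjusted p 0.0898). With no filter, 905 of 19775 genes were higher and 854 lower (8.9% passed). Of 50 actin genes 11 were higher and 4 lower there, and 13 and 3 actin probe sets. At an adjusted p under 0.01 the 6 counts were 751, 731, 10, 3, 14 and 3, and with a change of 1.5-fold or more 429, 537, 2, 2, 2 and 2. With probe sets of a gene averaged, 772 of 11567 genes were higher and 892 lower (14.4% passed), with 6 of 50 actin genes higher and 2 lower. Without _x_at and _s_at probe sets 885 of 9554 genes were higher and 909 lower (18.8% passed). Of 35 actin genes 9 were higher and 3 lower in that setting. Leaving out each array gave 813 to 1159 genes higher, 873 to 982 lower, 9 to 14 actin genes higher, 3 to 5 lower, 13 to 21 actin probe sets higher and 3 to 5 lower. The median of the actin genes was 0.067 with quantile normalization, 0.13 with median centring, 0.054 by averaged probe sets, and 0.079 to 0.13 leaving out each array. Median centring gave 58.9% of calls higher, against 51.4%. The sign turned for CDC42 by averaged probe sets (-0.075) and for MYL9 without _x_at and _s_at probe sets (-0.23). TET1 (-1.28) did not pass without moderation, at an adjusted p of 0.0964. The cause of these shifts was not tested, beyond the fewer genes or arrays that some settings use.

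Arrays with the same replicate number did not deviate together (correlation 0.0066), so the numbers are not taken to pair the samples. With the number as a replicate block, 2791 genes and 19 actin genes (15 higher, 4 lower) passed, and CAPZA2 did not. Precision is limited by 2 arrays per group and, for dim probe sets such as those of TAGLN, by signals near the array median.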

Other observations

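The 9 probe sets shared by ACTG1 and ACTB, the cytoplasmic actin genes, had log2 differences of -0.17 to -0.083 with adjusted p from 0.09 to 0.383 in the test over probe sets, and none passed. Over the 50 actin genes, the median deviation from the gene's mean was 0.072 and 0.038 on the TET1 siRNA arrays and -0.068 and -0.045 on the control siRNA arrays, on the log2 scale.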
